A study of Mus musculus with 6 samples.

Results

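The library labelled Sptbn1 homozygous knockout was set against the library labelled Sptbn1 heterozygous knockout. These are 2 of the 6 libraries of the series, and they differ by 1 further mutant Sptbn1 allele. Of 25793 genes in the count tables, 14072 had at least 1 CPM (counts-per-million) in either library and were compared, and 11721 were below that level in both. The cells were primary mouse embryonic fibroblasts, the connective-tissue cells that grow out of a minced embryo, taken at E13.5 from matings of Sptbn1 and Smad3 heterozygous mice and grown in 10% fetal bovine serum. The heterozygote is given as beta-2SP+/- and the homozygote as beta-2SP-/-, neither with a Smad3 mutation, and the levels in wild type (WT), SMAD3+/-, SMAD3-/- and beta-2SP+/- ; SMAD3+/- cells are printed beside them where they help. The mouse strain, the part of Sptbn1 that was removed and the number of embryos behind each culture are not given in the sources used here.

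Sptbn1 encodes beta-II spectrin, which pairs with alpha-II spectrin in the lattice beneath the plasma membrane and binds ankyrin. It is also known as an adaptor that helps SMAD3 and SMAD4 reach the nucleus after TGF-beta binds its receptors. In fibroblasts TGF-beta is known for driving genes of the extracellular matrix and the contractile apparatus, and in macrophages for restraining inflammatory genes.

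The 2 libraries were alike in size and make-up. Counts on genes came to 6888076 in the heterozygote and 6856680 in the homozygote, with 17062 and 17155 genes detected, and 41.7% and 40.9% of uniquely placed reads were assigned to genes. There was 1 library per genotype, so no difference below has a replicate check, no test of the genotypes was possible and no p-value is given. The range after each fold is an exact 95% Clopper-Pearson interval of the ratio of scaled counts. These intervals cover counting error only, since the reads carry no molecular identifiers and can repeat a molecule, and they compare libraries rather than genotypes. Embryo-to-embryo and culture-to-culture differences cannot be told apart from the genotype. The level of a gene in a culture also cannot separate a change in the number of cells of a type from a change in RNA per cell.

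The targeted gene was examined first. Sptbn1, listed under its older symbol Spnb2, stood at 1419 CPM in WT, with 1071 in the heterozygote and 771 in the homozygote, and at 1556, 1022 and 695 CPM in the SMAD3+/-, SMAD3-/- and double heterozygous libraries. The homozygote thus kept 5160 counts against 7273, a ratio of 0.72 (0.695 to 0.746). This is the order of the labels within the pair, but the ratio does not show the loss of the transcript. Sptbn1 was not called by the rule given below, and its level did not follow the number of mutant Sptbn1 alleles across the series. The double heterozygote lay below the homozygote, and the SMAD3-/- library, without an Sptbn1 mutation, lay below the heterozygote. Gene-level counts can miss a deleted exon and say nothing of the protein. Smad3 was at 57.7 in the heterozygote and 57.2 CPM in the homozygote, with a ratio of 0.992 (0.859 to 1.14). None of the 19 compared spectrin, ankyrin, adducin and protein 4.1 genes was called in either direction, and alpha-II spectrin (Spna2), the partner of beta-II spectrin, was at 398 and 415 CPM. Both libraries carried Y-linked transcripts, with Ddx3y at 132 and 118 CPM and Xist at 2.65 and 1.2 CPM, so both cultures held male cells. Whether either also held some female cells was not tested. All 12 fibroblast markers were detected and none was called, with Col1a1 at 9419 and 9533 CPM and Vim at 2405 and 2398 CPM.

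A gene is called when its whole interval lies beyond 1.5-fold. By this rule 137 genes were higher in the homozygote, which is 0.974% of those compared, and 56 were lower, which is 0.398%, so that 193 (1.37%) were called in all. At these shares a short gene list would often hold no call, so 0 calls in a list is near the share of all genes. The median fold was 2.95 among the higher genes and 3.65 among the lower ones. The median log2 ratio of all compared genes was 0.01, and 83.1% of genes lay within 0.5 of 0 on the log2 scale. Most called genes were of low or middle abundance: the higher genes had a median of 4.27 CPM in the heterozygote and 12.6 CPM in the homozygote. Among the 2155 genes that reached 100 CPM in either library, 16 were higher and 6 lower. When each interval was widened by the spread between the pair, WT and SMAD3+/- taken as 1 group of libraries, a biological coefficient of variation of 0.185, 44 higher genes (0.313% of those compared) and 15 lower genes (0.107%) were still called, 59 in all (0.419%). Genes called in this way as well are described below as holding with the widened interval. That spread is 1 value applied to every gene and comes from libraries of different genotypes. It is not a replicate spread and can be too small for single genes.

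**Figure D1:**
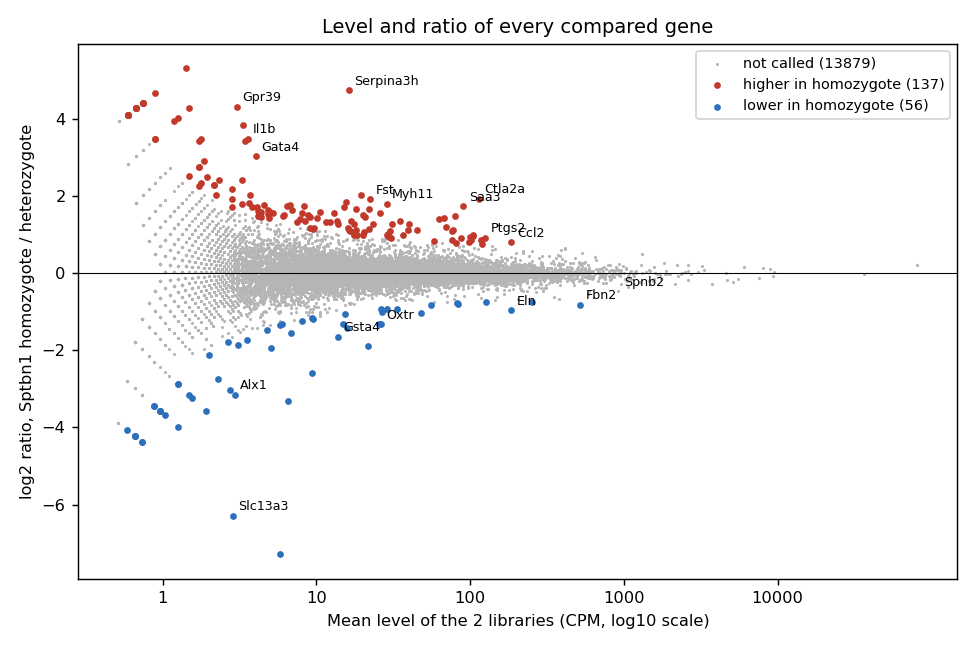
Each point is 1 of the 14072 compared genes, with the mean level of the 2 libraries in CPM on a log10 axis and the log2 ratio of the homozygote to the heterozygote on the other. The 137 higher genes (red) and 56 lower genes (blue) sit mainly at low and middle levels; for genes with 0 counts in 1 library the plotted ratio was computed after adding 0.5 counts and is no bound.

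Of 8 listed interleukin-1 ligands, 4 were below the filter in both libraries. Of the 4 compared, 3 were higher in the homozygote (75%, against 0.974% of all compared genes). These cytokines start inflammation through the receptor Il1r1, and Il1rn encodes the antagonist that occupies the same receptor. Il1b was at 7.61 CPM in WT, with 0.589 in the heterozygote and 6.57 in the homozygote, and 1.45 in SMAD3+/-, 0 in SMAD3-/- and 14.6 in double heterozygous cells. The heterozygote held 4 counts and the homozygote 44, an 11.2-fold (4.06 to 42.8) difference. The heterozygote was thus the low library of the pair, and WT lay beside the homozygote. Il1a was at 6.10, 0.589 and 6.28 CPM in WT, heterozygote and homozygote, a 10.7-fold (3.87 to 40.9) difference between the last 2. The more abundant Il1rn was at 101, 36.5 and 98.6 CPM, a 2.70-fold (2.33 to 3.14) difference, so agonists and antagonist were high in the same library. Il33, an alarmin stored in the nucleus, was at 27.9, 35.0 and 40.8 CPM and was not called. No compared ligand was lower, and all 3 higher ones hold with the widened interval. Il1a and Il1b passed the filter only through the homozygote, where they were high. Without a filter on low counts the median log2 ratio of the list was 1.52, against 2.42 with it.

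The genes that receive the interleukin-1 signal were not called. Of 19 compared receptors, adaptors and processing genes, 0 were called, against 1.37% of all compared genes, and their median log2 ratio was 0.07. At that share a list of this size would often hold no call. Il1r1 was at 221 and 237 CPM, the adaptor Myd88 at 19.3 and 17.5 CPM, and Casp1, the protease that matures interleukin-1 beta, at 6.92 and 6.87 CPM. Genes for NF-kB subunits and their feedback inhibitors gave 0 calls among 17, with a median log2 ratio of 0.31 and 12 of the 17 above equality. Rela was at 49.9 and 49.3 CPM, while Tnfaip3, a deubiquitinase that NF-kB induces to limit itself, was at 14.3 and 21.7 CPM without reaching the call.

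CC chemokines, which mainly attract monocytes, gave 5 higher genes of 12 compared (41.7%, against 0.974% of all compared genes). There were 0 lower genes, and the median log2 ratio was 0.78. Ccl2, the main monocyte attractant, was at 324 CPM in WT, with 135 in the heterozygote and 236 in the homozygote, and 406 in SMAD3+/-, 79.5 in SMAD3-/- and 2089 in double heterozygous cells. It differed 1.74-fold (1.61 to 1.89) between the 2 libraries, and the related Ccl7 differed 1.69-fold (1.53 to 1.87), from 88.8 to 150.0 CPM. Ccl9 went from 60.5 to 113 CPM, Ccl4 from 2.36 to 7.32 CPM and Ccl6 from 11.0 to 30.3 CPM, and of these 5 only Ccl6 holds with the widened interval. Ccl3, Ccl5 and Ccl11 had higher values in the homozygote without being called, at 36.5 against 19.9 CPM, 65.6 against 39.8 CPM and 12.1 against 6.33 CPM. Ccl8 was at 26.9 and 19.7 CPM and was not called. Summed over the list, CC chemokines came to 898 CPM in WT, with 414 in the heterozygote and 696 in the homozygote.

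Among 12 compared CXC and CX3C chemokines only Cxcl2 was called. Cxcl2, a neutrophil attractant, had 1 count in the heterozygote and 19 in the homozygote, a ratio of 19.3 (3.07 to 801) that a single count leaves very wide. Its levels were 3.36 CPM in WT, with 0.147 in the heterozygote and 2.84 in the homozygote, and 1.94 in SMAD3+/-, 0.178 in SMAD3-/- and 61.6 in double heterozygous cells. Cxcl1 and Cxcl11 were at 5.15 and 9.86 CPM and at 6.48 and 13.6 CPM, and Cxcl12, which fibroblasts make at rest, was at 88.8 and 108 CPM. None of the 12 compared interleukin-6 family, TNF and colony-stimulating factor genes was called: Il6 was at 3.68 and 6.28 CPM, Tnf at 4.71 and 5.68 CPM and Csf1 at 219 and 262 CPM.

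Acute-phase and innate defence genes gave 7 higher (29.2%, against 0.974% of all compared genes) and 0 lower genes of 24. Their median log2 ratio was 0.56. Saa3, a serum amyloid protein made outside the liver, was at 104 CPM in WT, with 42.0 in the heterozygote and 139 in the homozygote, and 155 in SMAD3+/-, 0.311 in SMAD3-/- and 2894 in double heterozygous cells. The homozygote exceeded the heterozygote 3.32-fold (2.90 to 3.80) on 932 against 285 counts, and it also lay above WT. C3, the central complement component, went from 34.2 to 90.9 CPM, a 2.66-fold (2.28 to 3.11) difference with 54.1 CPM in WT. Lcn2, which binds bacterial siderophores, went from 2.94 to 9.86 CPM, and these 3 genes hold with the widened interval. The lipopolysaccharide co-receptor Cd14 was at 48.7 and 103 CPM, the scavenger receptor Marco at 18.3 and 43.9 CPM and haptoglobin (Hp) at 4.71 and 12.1 CPM. S100a9, a subunit of the calprotectin of neutrophils and monocytes, rested on 3 and 17 counts, a ratio of 5.75 (1.66 to 30.6). The list was not uniform, since Ptx3, a long pentraxin, was at 187 and 152 CPM and Chi3l1 at 11.9 and 7.92 CPM, neither called.

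Ptgs2, the inducible cyclooxygenase, was the only one of 16 compared prostaglandin and nitric oxide genes to be called. It was at 172 CPM in WT, with 87.2 in the heterozygote and 164 in the homozygote, a 1.88-fold (1.70 to 2.09) difference. Other enzymes on the route to prostaglandins had higher values in the homozygote without a call: Pla2g4a, which frees arachidonic acid, was at 88.2 and 137 CPM, Ptgs1 at 45.8 and 73.8 CPM and the prostacyclin synthase Ptgis at 21.2 and 36.2 CPM. Ptgds, which makes prostaglandin D, had 14.4 and 6.72 CPM and was not called.

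Among the higher genes, the interval farthest from equality was that of Serpina3h, one of a mouse cluster of serine protease inhibitors. It had 8 counts in the heterozygote and 211 in the homozygote, or 1.18 and 31.5 CPM, a 26.8-fold (13.3 to 62.8) difference. WT was at 49.0 CPM, SMAD3+/- at 42.8, SMAD3-/- at 0.888 and the double heterozygote at 8.50. The Sptbn1 heterozygote and the SMAD3-/- library were therefore the low ones. Serpina3g and Serpina3f went from 10.5 to 29.7 CPM and from 0.442 to 3.29 CPM. Serpina3n, the most abundant member, had the opposite order at 247 CPM in the heterozygote and 181 in the homozygote and was not called. Ctla2a, a cysteine protease inhibitor, was at 240.2 CPM in WT, with 47.7 in the heterozygote and 181 in the homozygote, a 3.80-fold (3.36 to 4.31) difference on 324 and 1213 counts, and its near copy Ctla2b was at 5.45 and 12.0 CPM. The other 2 compared members, Serpina3m and Gm6930, were at 3.24 and 3.59 CPM and at 1.33 and 4.03 CPM. Of the 8 compared members, 4 were higher (50%, against 0.974% of all compared genes) and 0 lower, and all 4 hold with the widened interval. Serpina3f was under 1 CPM in the heterozygote and was compared only through the homozygote. Members of the Serpina3 family, and Ctla2a and Ctla2b, are near-identical copies within their families, so how reads were split among them is uncertain.

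**Figure D2:**
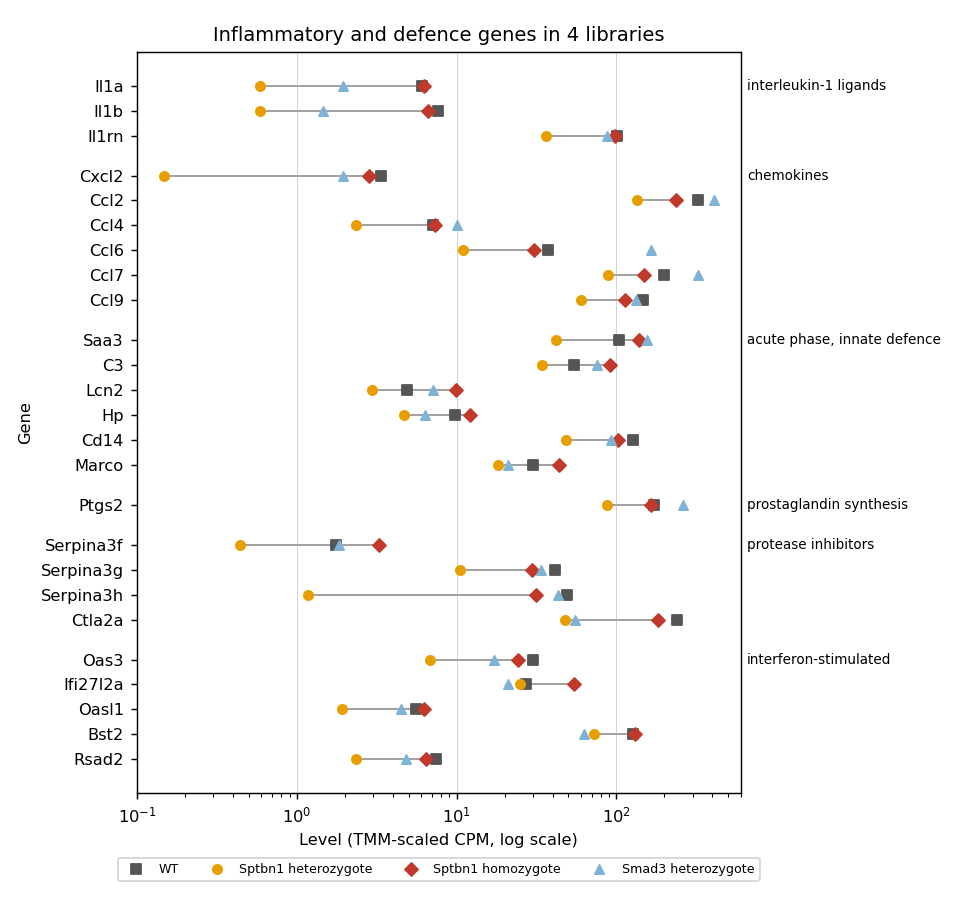
Levels in CPM (log axis) of inflammatory and defence genes called higher in the homozygote, 1 gene per line and 1 symbol per library, with a grey line joining the heterozygote and the homozygote. Of the 4 libraries drawn (WT, heterozygote, homozygote and SMAD3+/-), the heterozygote is the lowest for all drawn genes but Ifi27l2a and Bst2, as for Il1b at 0.589 CPM; S100a9, lowest in WT, is not drawn.

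Promoter sequence was read for the inflammatory genes called higher, to show whether they shared known binding motifs. RefSeq windows (build GRCm38.p6) of the 250 bases before the start were found for 10464 compared genes, for 96 of the 137 higher genes and for 15 of the 21 higher genes in the interleukin-1, chemokine, acute-phase, prostaglandin and Serpina3 lists. The motifs searched on both strands were GGGNNNTTCC for NF-kB, TTGCNNAA for C/EBP and TGANTCA for AP-1, and no motif contains another. The NF-kB letters stood in 11 (11.5%) of the higher genes' windows against 6.06% of all windows. The exact 95% interval of the NF-kB share, 5.86% to 19.6%, holds that of all windows. Those of C/EBP stood in 20 windows (20.8%) against 9.04% and those of AP-1 in 19 (19.8%) against 5.84%. In the 33 windows of lower genes the shares were 9.09%, 12.1% and 12.1%. These shares move with the call rule: with a stricter exact interval they were 23.3% for NF-kB, 13.3% for C/EBP and 30.0% for AP-1 among the higher genes. Base composition moved with them, with a median GC content of 52.2% in the higher genes' windows, 52.8% in the lower ones and 59.9% in all, and its part in the shares was not tested. Of the 15 inflammatory windows, 5 held the NF-kB letters, 6 those of C/EBP and 4 those of AP-1. Ccl9 and Il1rn held both the NF-kB and the AP-1 letters, and Il1b and Ccl6 held no match. The median GC content of these windows was 47.6%. A match is a description of these letters and not a site in use.

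Windows are shown for 5 of these genes because each carries 1 kind of match and a value given above, written 5′ to 3′ on the gene's own strand, with the matched letters in capitals. Cxcl2 (chr5:90903649-90903898, plus strand) has 3 NF-kB matches, which begin 97, 96 and 78 bases before the start, the first 2 overlapping. Serpina3g (chr12:104235897-104236146, plus strand) has 1 NF-kB match at 85 bases. Saa3 (chr7:46715677-46715926, minus strand) and C3 (chr17:57228137-57228386, minus strand) have 1 C/EBP match each, at 99 and 45 bases. Il1a (chr2:129309973-129310222, minus strand) has 1 AP-1 match at 12 bases.
Cxcl2: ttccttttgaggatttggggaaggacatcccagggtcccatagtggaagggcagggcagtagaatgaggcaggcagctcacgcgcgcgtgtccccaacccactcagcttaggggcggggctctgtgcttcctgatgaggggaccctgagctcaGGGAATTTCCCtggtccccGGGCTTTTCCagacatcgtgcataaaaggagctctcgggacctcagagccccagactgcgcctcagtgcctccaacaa
Serpina3g: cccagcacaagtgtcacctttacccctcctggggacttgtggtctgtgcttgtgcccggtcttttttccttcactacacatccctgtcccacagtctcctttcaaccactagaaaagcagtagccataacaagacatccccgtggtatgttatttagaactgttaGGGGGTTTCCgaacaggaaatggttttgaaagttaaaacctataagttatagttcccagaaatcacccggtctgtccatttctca
Saa3: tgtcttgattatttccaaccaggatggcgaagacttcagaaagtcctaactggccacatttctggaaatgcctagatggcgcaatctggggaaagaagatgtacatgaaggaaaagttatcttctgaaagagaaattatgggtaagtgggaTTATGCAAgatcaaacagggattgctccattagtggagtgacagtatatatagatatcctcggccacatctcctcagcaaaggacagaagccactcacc
C3: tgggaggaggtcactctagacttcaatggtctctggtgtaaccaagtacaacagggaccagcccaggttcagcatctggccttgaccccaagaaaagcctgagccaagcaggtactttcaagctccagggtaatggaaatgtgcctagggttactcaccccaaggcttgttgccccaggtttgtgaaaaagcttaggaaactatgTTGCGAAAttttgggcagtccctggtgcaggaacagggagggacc
Il1a: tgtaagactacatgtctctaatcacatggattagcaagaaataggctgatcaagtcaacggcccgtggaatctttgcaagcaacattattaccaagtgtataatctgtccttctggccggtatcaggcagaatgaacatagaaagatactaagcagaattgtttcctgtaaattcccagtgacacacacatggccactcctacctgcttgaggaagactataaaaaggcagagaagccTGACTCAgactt

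Interferon-stimulated genes, the antiviral set that interferons switch on, gave 5 higher (11.1%, against 0.974% of all compared genes) and 0 lower genes of 45. Their median log2 ratio was 0.37, and 43 of the 45 lay above equality. Oas3, which senses double-stranded RNA, was at 29.9 CPM in WT, with 6.77 in the heterozygote and 24.4 in the homozygote, a 3.60-fold (2.58 to 5.10) difference that holds with the widened interval. The others called were Bst2 (tetherin) at 72.2 and 132 CPM, Ifi27l2a at 24.9 and 54.2 CPM, Oasl1 at 1.91 and 6.28 CPM and Rsad2 (viperin) at 2.36 and 6.43 CPM. The regulators Irf9, at 51.7 and 51.6 CPM, and Irf7, at 81.6 and 114 CPM, were not called. Of the 15 genes of MHC class I presentation, 0 were called and 14 lay above equality, with a median log2 ratio of 0.29 and B2m at 1856 and 1925 CPM.

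Macrophages can be carried into fibroblast cultures, and their markers were present in both libraries. Summed over the 26 compared macrophage and leukocyte markers, levels were 2055 CPM in the heterozygote and 2256 in the homozygote, against 3224 in WT, and of the 26 only Lyz1 and Aif1 were under 10 CPM in both, while Cd163, below the filter, had 0 counts in both. Of the 26, 21 lay above equality and 5 below, with a median log2 ratio of 0.23. Csf1r, the receptor that macrophages need to survive, Cd68 and C1qb were at 44.0 and 49.9, 47.1 and 49.6, and 31.2 and 32.1 CPM. Lyz2, the most abundant marker, was at 1073 CPM in the heterozygote and 971 in the homozygote. It made up a large part of both sums and had the opposite order to most markers, so the sums understate the differences of the others. In the list 4 markers were called higher (15.4%, against 0.974% of all compared genes). They were Itgam (71.7 and 126 CPM), the NADPH oxidase subunit Cybb (69.6 and 139 CPM), the Fc receptor Fcgr1 (10.3 and 22.3 CPM) and Cd52 (5.89 and 13 CPM). None of the 4 holds with the widened interval. The part of macrophage number in the inflammatory differences was not tested.

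A further list of 39 myeloid genes was drawn up after their values were seen, so its count supports nothing, but it shows which genes accompany those above. It held 15 higher and 0 lower genes. Itgax (CD11c) was the most uneven, with 2 counts in the heterozygote and 22 in the homozygote, a ratio of 11.2 (2.74 to 97.9), and 5.40 CPM in WT. Irg1, which makes itaconate in activated macrophages, was at 6.63 and 19.4 CPM, the formyl peptide receptor Fpr1 at 3.09 and 10.5 CPM, and Clec4e at 4.56 and 13 CPM. Arg1 was at 9.42 and 24.2 CPM. Fcgr2b, the inhibitory Fc receptor, had the opposite order at 14.1 and 7.02 CPM and was not called. Outside the lists, the naming rule gave Slfn8, a Schlafen gene with close copies, at 30.9, 7.66 and 31.2 CPM in WT, heterozygote and homozygote, a 4.08-fold (3.00 to 5.64) difference.

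**Figure D3:**
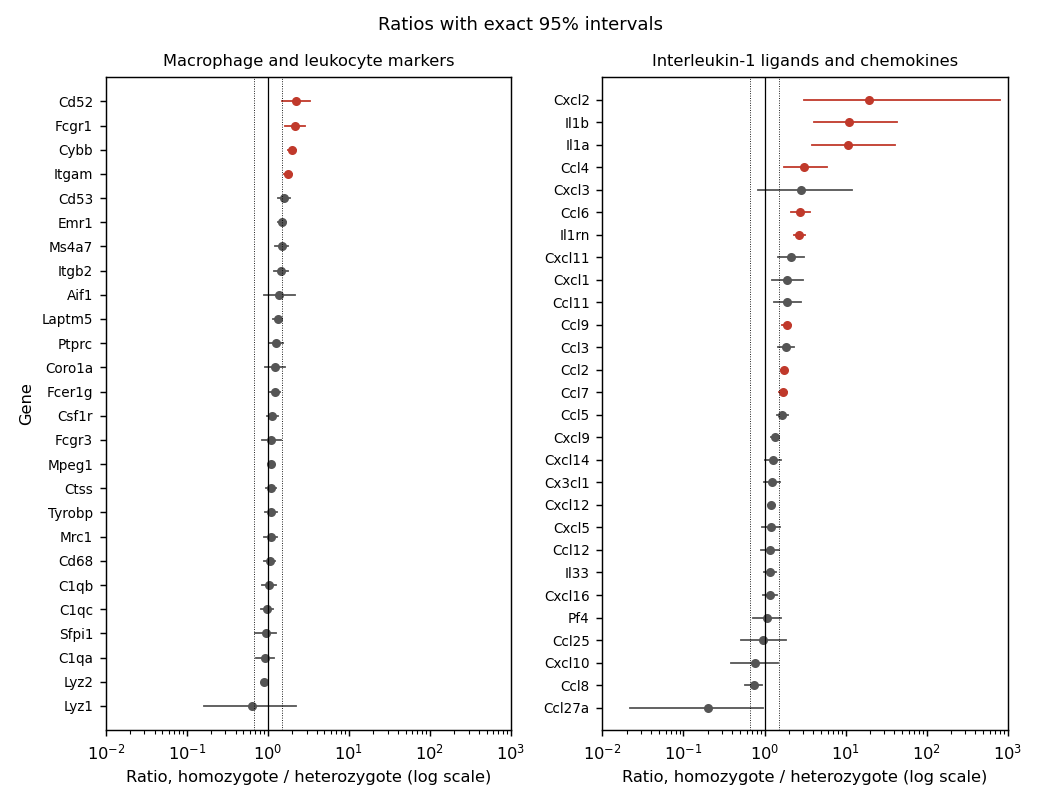
Ratios of the homozygote to the heterozygote with exact 95% intervals (counting error only) on a log axis, for 26 macrophage and leukocyte markers and for 28 interleukin-1 ligands and chemokines; red marks called genes and dotted lines 1.5-fold either way. Of the markers 21 lie above equality and 5 below, 4 of them called, and Il1b and Il1a lie at 11.2-fold and 10.7-fold.

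Markers of mesothelium, gonad and kidney gave 7 higher (33.3%, against 0.974% of all compared genes) and 0 lower genes of 21, with a median log2 ratio of 0.71. Summed over the 28 listed genes, levels were 328 CPM in the heterozygote and 354 in the homozygote. Mesothelium is the sheet that covers the embryo's internal organs, and it can be carried into fibroblast cultures. Gata4, a transcription factor of heart, gonad and mesothelium, had 6 counts in the heterozygote and 48 in the homozygote. Its levels were 6.55 CPM in WT, with 0.883 in the heterozygote and 7.17 in the homozygote, and 5.14 in SMAD3+/-, 3.20 in SMAD3-/- and 3.76 in double heterozygous cells, an 8.12-fold (3.47 to 23.2) difference between the Sptbn1 pair. Only the heterozygote was under 1 CPM. Upk1b and Upk3b, membrane proteins of mesothelium and urothelium, went from 0.442 to 6.28 CPM and from 0.736 to 3.89 CPM, and these 3 genes hold with the widened interval. Upk1b rested on 3 counts in the heterozygote, which gave a ratio of 14.2 (4.54 to 71.7). All 3 genes were under 1 CPM in the heterozygote, so they entered the comparison only through the homozygote, where they were high.

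The Wilms tumour factor Wt1 was at 17.1, 9.87 and 22.1 CPM in WT, heterozygote and homozygote, and Lrrn4 at 6.37, 4.27 and 11.4 CPM. Aldh1a1, which makes retinoic acid, was at 10.2, 3.24 and 8.97 CPM. The steroid dehydrogenase Hsd3b1 had 0 counts in the heterozygote and 8 in the homozygote, which is at least 2.71-fold higher against a floor of 3 counts in that library. Hsd3b1 too was compared only through the homozygote. Mesothelin (Msln), the defining surface protein of mesothelium, was at 1.77 and 5.08 CPM and was not called. Other members had the opposite order or none: Osr1 was at 57.6 and 39.9 CPM and Emx2 at 29.4 and 28.8 CPM. Rspo1, a Wnt amplifier of the ovary and kidney, was at 8.32 CPM in WT, with 76.3 in the heterozygote and 52.9 in the homozygote, so that both Sptbn1 mutant libraries stood above WT.

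Contractile genes of smooth muscle were higher in part. Of 20 compared smooth muscle genes 4 were higher (20%, against 0.974% of all compared genes) and 0 lower, with a median log2 ratio of 0.21. Myh11, the smooth muscle myosin heavy chain, was at 33.5 CPM in WT, with 12.8 in the heterozygote and 44.7 in the homozygote, and 44.0 in SMAD3+/-, 80.8 in SMAD3-/- and 29.4 in double heterozygous cells. The difference within the pair was 3.49-fold (2.74 to 4.48) and holds with the widened interval. Desmin (Des) was at 19.7 and 50.7 CPM, the enteric actin Actg2 at 68.9 and 132 CPM and the myosin light chain kinase Mylk at 84.1 and 151 CPM. The abundant contractile transcripts that cultured fibroblasts express in common were close to equal, with Acta2 at 2308 and 2194 CPM, Tagln at 220.4 and 237 CPM and Myl9 at 385 and 367 CPM. Des also stands in the list of skeletal and cardiac muscle genes, where it was the only one of 6 called: Tnnt2 was at 1.62 and 3.74 CPM, Acta1 at 2.80 and 3.14 CPM, Actc1 at 0.736 and 1.2 CPM, Tnnt3 at 1.47 and 0.598 CPM and Pax3 at 3.09 and 1.2 CPM.

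Fst and Col2a1 were each the only call in their list. With 1.37% of all compared genes called, 1 call in a list of such a size is near that share. Follistatin (Fst) binds and blocks activins, and it was the only one of 35 compared TGF-beta and activin pathway genes to be called. It was at 11.9 CPM in WT, with 9.42 in the heterozygote and 35.4 in the homozygote, and 17.7 in SMAD3+/-, 152 in SMAD3-/- and 31.9 in double heterozygous cells, a 3.76-fold (2.84 to 5.03) difference within the pair that holds with the widened interval. Here WT lay beside the heterozygote and the homozygote was the high library of the pair. The ligands and receptors of the pathway were not called, with Inhba at 398 and 419 CPM, Tgfb1 at 42.3 and 46.6 CPM and Tgfbr2 at 428 and 347 CPM. Of 38 compared TGF-beta and SMAD3 target genes, 0 were called, with a median log2 ratio of 0.12. Among them Ctgf was at 555 and 746 CPM and Smad7 at 37.3 and 44.2 CPM.

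Col2a1, the main collagen of cartilage, was at 3.36 CPM in WT, with 10.6 in the heterozygote and 33.5 in the homozygote, a 3.16-fold (2.41 to 4.18) difference. It was the only one of 21 cartilage and bone genes called, and the median log2 ratio of the list was -0.17. Sox9, which drives Col2a1 in chondrocytes, was at 67.7 and 55.9 CPM, aggrecan (Acan) at 4.42 and 4.33 CPM and Runx2 at 174 and 149.7 CPM. Mmp9, a gelatinase that macrophages also make, was the only one of 34 matrix proteases and inhibitors called, at 122, 54.8 and 98.8 CPM in WT, heterozygote and homozygote.

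A set of astrocyte and radial glia genes was noticed among the higher genes and listed after their values were seen, so its 6 higher genes of 18 are a description only. Aqp4, the water channel of astrocyte endfeet, was at 21.1 CPM in WT, with 13.1 in the heterozygote and 38.7 in the homozygote, and 2.04 in SMAD3+/-, 0.0444 in SMAD3-/- and 0.573 in double heterozygous cells. The proteoglycan Ncan was at 42.7 and 97.6 CPM, the glutamate transporter Slc1a2 at 92 and 180 counts, Mlc1 at 1.47 and 5.08 CPM and Atp1b2 at 11.3 and 24.7 CPM. Fabp7, a fatty acid binding protein of radial glia, was at 19.3 and 40.9 CPM and was the only one of 14 neural crest and glial markers called. In that list the Schwann cell factor Sox10 had the opposite order without a call, at 16.5 and 14.3 CPM. Gfap was at 23 and 36.2 CPM, and Slc1a3 at 30.3 and 24.8 CPM.

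Genes lower in the homozygote were fewer. Of 60 compared collagens and matrix proteins 3 were lower (5%, against 0.398% of all compared genes) and 0 higher. None of the 3 holds with the widened interval, and the median log2 ratio was -0.02. Elastin (Eln) was at 203 CPM in WT, with 243 in the heterozygote and 125 in the homozygote, and 6.49 in SMAD3+/-, 31.6 in SMAD3-/- and 198 in double heterozygous cells. The homozygote was 1.94-fold (1.78 to 2.11) lower than the heterozygote on 839 and 1652 counts. Fibrillin-2 (Fbn2), which forms embryonic microfibrils, was at 377 CPM in WT, with 667 in the heterozygote and 377 in the homozygote, 1.77-fold (1.68 to 1.86) lower in the last. Osteoglycin (Ogn), a small leucine-rich proteoglycan, was at 78.6, 160.3 and 95.2 CPM. For Fbn2 and Ogn it was the heterozygote that stood away from WT, whereas for Eln it was the homozygote. Other elastic fibre genes were not called, with Fbn1 at 1654 and 1496 CPM, Fbln5 at 232 and 197 CPM and Lox at 3022 and 3075 CPM.

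The oxytocin receptor Oxtr was at 12.8 CPM in WT, with 37.4 in the heterozygote and 14.9 in the homozygote, 2.50-fold (1.98 to 3.19) lower in the homozygote. Chodl, a membrane lectin, was at 10.6, 23.1 and 8.67 CPM, again with WT near the homozygote. Nt5e (CD73), the ectoenzyme that makes adenosine, was at 54.1 CPM in WT, with 36.7 in the heterozygote and 14.8 in the homozygote, so its level stepped down through the 3 libraries. Gsta4, a glutathione transferase that clears lipid aldehydes, was at 16.5, 21.1 and 6.72 CPM, 3.13-fold (2.23 to 4.48) lower in the homozygote, and it holds with the widened interval. In the same list of 30 glutathione and NRF2 genes, the mitochondrial Sod2 was higher, at 59.8 and 102 CPM, and Hmox1 was at 86.6 and 103 CPM. Slc13a3, a dicarboxylate transporter, had 39 counts in the heterozygote and 0 in the homozygote, at least 12.8-fold lower against the floor of 3 counts, with 4.87 CPM in WT and 12.6 in the double heterozygote. Pappa2, a protease of IGF-binding proteins, was at 4.16, 8.10 and 2.09 CPM.

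Alx1, a homeobox factor of the facial mesenchyme, had 36 counts in the heterozygote and 4 in the homozygote, 8.87-fold (3.18 to 34.3) lower. It was at 1.86 CPM in WT, with 5.30 in the heterozygote and 0.598 in the homozygote, and 1.84 in SMAD3+/-, 2.98 in SMAD3-/- and 0.796 in double heterozygous cells. It was the only one of 55 face, limb and trunk patterning factors called, with 0.04 as the median log2 ratio of the 55. Other factors of the face had lower values in the homozygote without a call: Alx4 was at 19.7 and 11.2 CPM, Lhx8 at 11.9 and 5.98 CPM and AP-2 alpha (Tcfap2a) at 15.6 and 7.77 CPM. Hand2, also a factor of face and limb, had the opposite order at 2.21 and 5.68 CPM. None of 29 Hox genes, which record the position of cells along the trunk and limbs, was called, and their median log2 ratio was 0.02.

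Signalling lists held single genes in either direction. Among 38 Wnt genes the antagonist Dkk2 was lower, at 69.1, 105 and 60.8 CPM in WT, heterozygote and homozygote, and the antagonist Frzb was higher, at 16.8, 8.10 and 19.6 CPM. The receptor Fzd10 had 0 counts in the heterozygote and 10 in the homozygote, at least 3.38-fold higher. Among 32 BMP genes Gdf6, a ligand of joints, was higher at 10.3 and 25.1 CPM, and Bmp3, with 15 and 2 counts, and Sostdc1, with 9 and 0, were lower on few reads. Mest, a paternally expressed imprinted gene, was at 52.5, 104 and 60.5 CPM and was the only one of 24 imprinted genes called. Igf2 was at 1714 CPM in WT, with 2371 in the heterozygote and 1965 in the homozygote, and H19, its imprinted neighbour, at 1120.2, 1856 and 1659.8 CPM, neither called. Egr3, 1 of 21 immediate-early genes and the only one called, rested on 11 counts in the heterozygote and 1 in the homozygote.

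**Figure D4:**
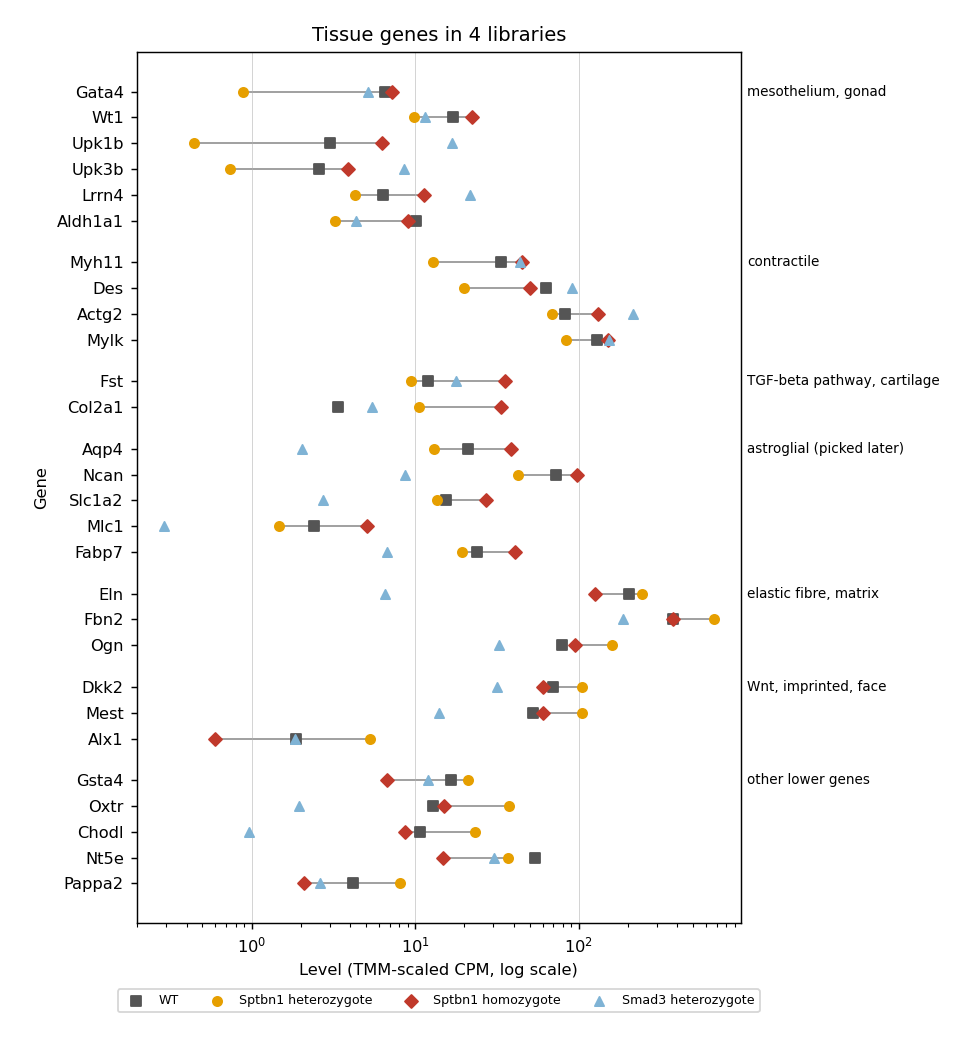
Levels in CPM (log axis) of tissue genes called higher or lower in the homozygote, 1 gene per line and 1 symbol per library, with a grey line joining the heterozygote and the homozygote. Gata4, Myh11 and Aqp4 lie to the right in the homozygote, at 7.17, 44.7 and 38.7 CPM, and Eln, Oxtr and Gsta4 lie to the left, at 125, 14.9 and 6.72 CPM.

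The retinol dehydrogenases Adh7 and Adh1 were noticed among the lower genes after their values were seen: Adh7 was at 21.2 and 8.52 CPM and Adh1 at 20.8 and 10.0 CPM. The angiotensin receptor Agtr2, seen in the same way, was at 29.6 CPM in WT, with 64.5 in the heterozygote and 31.7 in the homozygote. Several remaining genes of the naming rule rested on few counts. Gpr39, a zinc-sensing receptor, had 2 and 39 counts in heterozygote and homozygote, the desmosomal cadherin Dsg2 had 0 and 19, at least 6.43-fold higher, and Lypd1 had 0 and 12. In the other direction Zfp33b had 24 and 2 counts, Fbxw10 16 and 1, Vtcn1 19 and 2, Hlf 18 and 2, and Rab26 10 and 0. The ribosomal protein genes Rpl30 (110 and 18), Rpl39 (33 and 4) and Rpl9 (0 and 10) belong to families with many near-identical copies, and their calls are uncertain. In these tables Gapdh, a gene with many processed copies, stood at only 1.18 and 0.299 CPM. The other 54 of the 57 compared ribosomal protein genes were not called.

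The lists for growth and metabolism gave no call. With 1.37% of all compared genes called, a list of such a size would often hold none. No gene was called among 40 DNA replication genes, 38 mitosis genes, 23 p53 targets and cell-cycle inhibitors, 29 hypoxia and glycolysis genes, 27 cholesterol and fatty acid synthesis genes and 16 IGF genes. The mitosis list had a median log2 ratio of 0.15 with 32 of 38 above equality, as with Mki67 at 753 and 864 CPM, and the replication list one of 0.04, with Mcm2 at 57.0 and 46.8 CPM. Vegfa was at 203 and 301 CPM. Among 25 genes of the Hippo pathway only Ptgs2, counted above, was called, and Ctgf and Cyr61 were not, Cyr61 standing at 508 and 549 CPM. Among markers of other cells that a culture could hold, 0 of 8 endothelial genes and 0 of 6 epithelial genes were called. Members of those lists were Kdr at 10.7 and 11.7 CPM, Flt1 at 85.7 and 80.8 CPM, Eng at 18.1 and 19.6 CPM, Cdh5 at 0.883 and 1.79 CPM, Tek at 1.18 and 0.299 CPM, Vwf at 1.03 and 0.747 CPM, Ramp2 at 1.47 and 0.448 CPM and Egfl7 at 1.18 and 2.24 CPM. Epithelial members were Cdh1 at 0.736 and 1.94 CPM, Dsp at 0.589 and 1.94 CPM, Krt7 at 1.03 and 1.2 CPM, Krt18 at 3.98 and 4.33 CPM, Krt19 at 2.36 and 1.49 CPM and Ovol1 at 1.03 and 0.149 CPM. Of the red cell genes only Alas2 passed the filter, at 2.65 and 3.74 CPM.

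**Figure D5:**
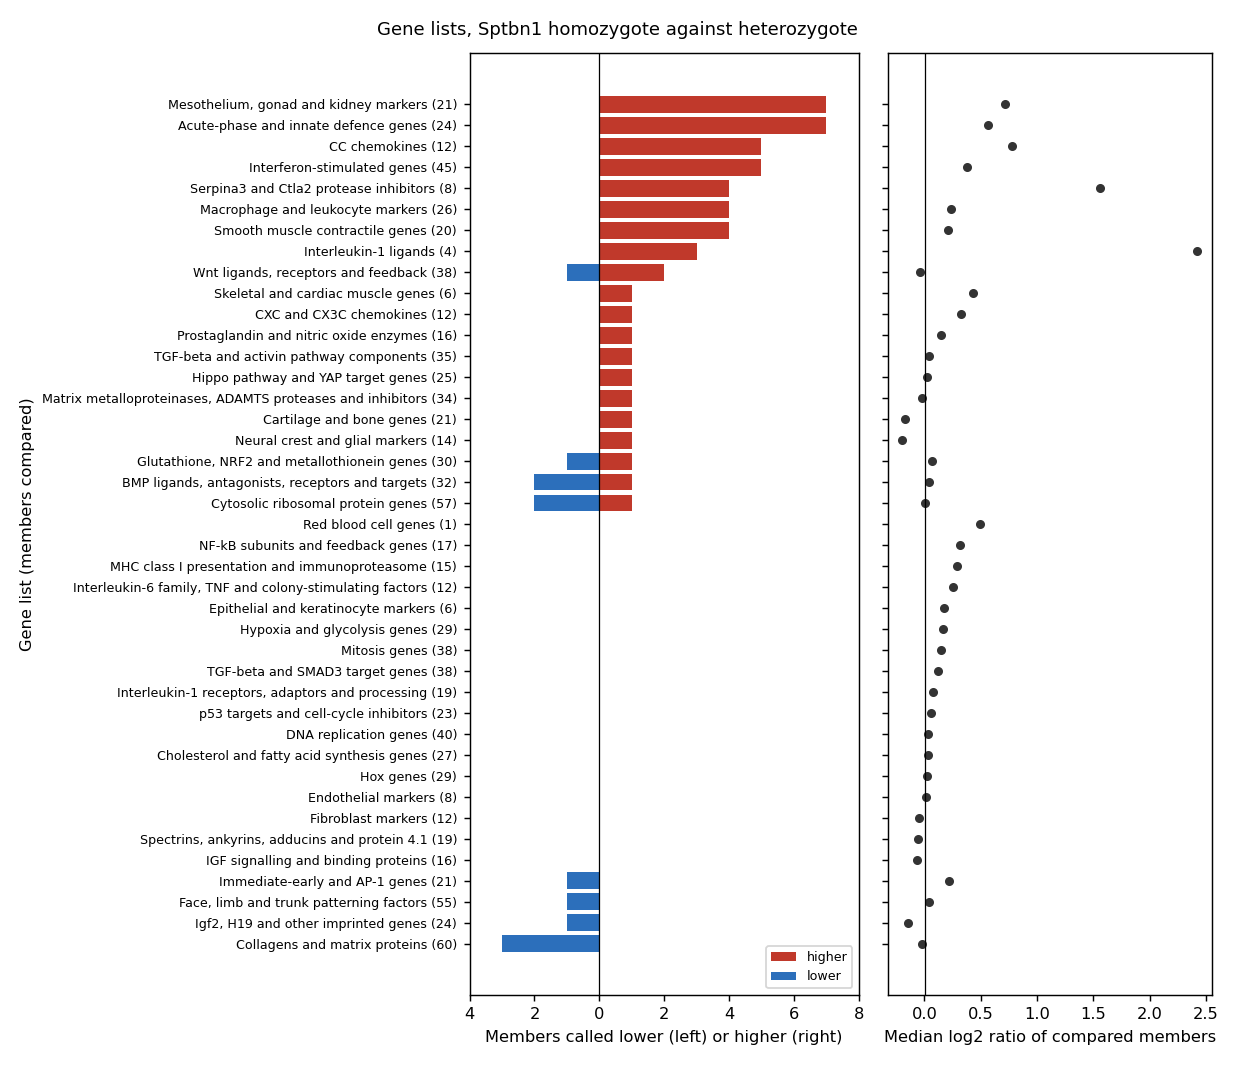
For each of the 41 gene lists, the number of members called lower (left, blue) or higher (right, red) and, in the second panel, the median log2 ratio of its compared members, with a vertical line at the median of all genes (0.01) and the number compared in brackets. The mesothelial and acute-phase lists hold the most higher genes, 7 each, and the collagen and matrix list, with 3, holds the most lower ones.

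The other libraries show where each called gene stood. The WT level lay nearer to the homozygote than to the heterozygote, on the log2 scale, for 101 of the 137 higher genes (73.7%) and for 27 of the 56 lower genes (48.2%). WT was above both Sptbn1 mutants for 45 of the higher genes and between them for 87. In the SMAD3+/- library 81 of the 137 higher genes and 30 of the 56 lower genes lay nearer to the homozygote, and 76 and 30 did so in double heterozygous cells. The SMAD3-/- library was nearer to the homozygote for 30 of the higher genes and 39 of the lower genes, and below both Sptbn1 mutants for 87 and 29. These positions are descriptions. The genes were selected by their values in this pair, and the same shares over all compared genes were not computed. The SMAD3-/- and double heterozygous libraries also differed in make-up, with 80.1% and 81.2% of uniquely placed reads assigned to genes against 40.9% to 43.3% in the other 4, and the part of this in their positions was not tested.

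No gene beside the targeted locus was called. Among the 20 nearest compared genes on each side of Sptbn1 on chromosome 11, 0 of 40 were called, against 1.37% of all compared genes. At that share 40 genes would often hold no call. Their median log2 ratio was -0.04, with single genes from -0.98 to 2.14. By chromosome, leaving out Y with 0 of 4 genes called, the share of compared genes called ran from 0.608% on chromosome 10 to 2.22% on chromosome 5, with 1.13% on chromosome 11, among the 13307 genes that could be placed by name.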

How the data were processed

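RNA from primary fibroblasts of 6 genotypes was sequenced after 1 ug of total RNA entered an Illumina TruSeq RNA kit, per the labels' protocols, with 1 library per genotype. The authors deposited raw read counts per gene symbol, without scaling. Per the submitters' processing notes, the build was mm9 and the tools included TopHat2 2.0.10 and HTSeq, with FastQC, Trimmomatic and DESeq2 also listed. What each did, whether strand was used and which annotation was counted are not given in the sources used here, so overlapping and antisense genes cannot be told apart. The 5 closing summary lines of each table were left out; reads on no gene made up 30.9% of all records in both Sptbn1 libraries and reads placed at several sites 46.4% and 47.1%.

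Library sizes were scaled with TMM over all 6 libraries (edgeR 4.0.16, R 4.3.3), and levels are CPM of the scaled size, so they compare a gene between libraries and not genes with one another. Ratios were taken for genes with at least 1 CPM in either library, with exact Clopper-Pearson 95% intervals (scipy 1.17.1), and a gene is called when the whole interval lies beyond 1.5-fold. A count of 0 was set to a floor of 3 counts per library for a lower bound. The pair rule was checked on simulated data. The 41 gene lists hold 1150 genes found in the tables, of which 943 were compared, 50 called higher and 12 lower; 3 further lists (astroglial, myeloid and retinol genes) were added after values were seen. Of the 16 retinol genes compared, 1 was higher and 2 lower. The comparison and the lists were chosen with earlier results of these data known. Genes named are the 15 genes in each direction with the interval bound farthest from equality (the bound nearest to it in each interval), without predicted genes and structural RNAs; up to 8 called members per list; every compared member of lists with 8 or fewer; Sptbn1 and Smad3; and uncalled list members given for contrast, chosen after their values were seen. A gene that this rule names is not reported here. Promoter windows and gene order come from RefSeq tables of GRCm38.p6, matched by symbol. Alternatives were other scalings (DESeq2 1.42.0 size factors among them), filters, folds and intervals.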

Additional observations from a re-analysis of the deposited data

How the results depend on the processing

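No paired analysis was possible because each genotype had 1 library without a replicate number. No library could be left out of a pair of 2. Other scalings gave 187 to 193 calls, of which 185 to 192 were shared with the 193 reported, and moved the median of all genes by at most 0.0146 on the log2 scale; without a filter on low counts there were 193. No called gene that is named changed direction under any alternative run, and none could have done so. The scalings shifted all log2 ratios alike by that small amount, and the other alternatives left the ratios unchanged. The median log2 ratio crossed 0 for all genes with total counts (to -0.0095) and for 4 lists under at least 1 alternative: the epithelial list, 0.17 with the 1 CPM filter and -0.56 without a filter, and the endothelial, Wnt and ribosomal lists, whose medians ran from -0.10 to 0.11. Without a filter the interleukin-1 ligand median was 1.52, against 2.42 with it for the 4 compared genes. The number of calls followed the strictness of the rule. It was 63 (47 higher and 16 lower) beyond 2-fold, 64 (47 and 17) with a stricter exact interval and 59 (44 and 15) with the widened interval, and a filter of 5 CPM left 33 lower genes. The called genes in the fixed lists, 62 in all, were then 25, 34 and 23. The share of calls that were higher stayed between 69% and 75.2%. The share of higher genes with WT nearer to the homozygote was 80.85% beyond 2-fold and also 80.85% with the stricter interval, and that of lower genes (48.2% as reported) was 25.0% beyond 2-fold and 26.7% with the widened interval, but 50.9% with TMM without structural RNA, Malat1, Neat1 and histone genes and 60.6% with the 5 CPM filter, so on which side of 50% it lay depended on these choices. With the stricter interval the motif shares of the higher genes were 23.3% (NF-kB), 13.3% (C/EBP) and 30.0% (AP-1). These alternatives call fewer genes by construction. TMM over the 2 libraries gives no WT level, so the position of WT was not computed there. Genes near 1 CPM carry few counts per library, and small differences there were not detectable at this depth.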
